A study of Mus musculus with 28 samples.

Results

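The 8 genes described here encode the contractile apparatus of smooth muscle: Acta2, Actg2, Myh11, Tagln, Cnn1, Lmod1, Des and Mylk. They were chosen by name, as genes of airway and vascular smooth muscle, and each symbol matched 1 of the 35880 Ensembl identifiers in the deposited count table. All 8 of these 8 genes passed the filter on low counts, which left 14887 genes to test. Messenger RNA was sequenced from whole-lung homogenates of male wild-type C57BL/6 mice, an inbred strain, aged 8 to 12 weeks. Mice were exposed for 3 hours a day to sham air, to carbon black (an aerosol of nearly pure carbon particles) at 10 mg/m3, to ozone (an oxidant gas) at 2 ppm, or to both together, called co-exposure here. A single exposure defines the day 1 groups, with 4 libraries per group, and 4 daily exposures define the day 4 groups, with 3 libraries per group, 28 libraries in all. Day and number of exposures cannot be told apart, and the sources used here do not say how long after the last exposure the lungs were taken. Whether every library is a separate mouse is not stated in the labels, so p-values describe the spread between libraries, which may be technical.

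Smooth muscle cells shorten when calcium activates myosin light chain kinase, which phosphorylates the regulatory light chain of myosin and lets it pull on actin filaments. In the lung these cells wrap the airways and the pulmonary arteries and veins, where they set airway calibre and vascular tone. Many of their contractile genes are driven by serum response factor, which binds a DNA element called the CArG box, together with the coactivator myocardin.

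Estimated counts summed to between 5.14 M and 9.72 M per library, with a median of 7.19 M. Levels are in TMM-normalized CPM, counts set to the same total in every library, with the standard deviation (SD) over libraries, and a gene with no count could lie anywhere under 3 counts, or 0.309 to 0.584 CPM depending on the library. The lowest count of any of the 8 genes in any library was 70, for Actg2, so none came near that limit. RNA of skeletal muscle, a tissue outside the lung, set 4 libraries apart. The summed level of 11 skeletal muscle markers was 2260 CPM in sham day 1 replicate 2, 1140 CPM in ozone day 1 replicate 2, 575 CPM in carbon black day 4 replicate 3 and 943 CPM in co-exposure day 4 replicate 3, against 31.2 CPM or less in each of the others. Each result below was therefore also fitted without these 4 libraries, an alternative chosen after the marker levels were seen. In a homogenate, fewer smooth muscle cells and less RNA per cell cannot be told apart, nor can airway and vascular muscle.

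Per kilobase of exon, Acta2 and Tagln were the most abundant of the 8 transcripts. Averaged over the 28 libraries, Acta2 stood at 63.3 CPM per kilobase, Tagln at 55.0, Des at 32.9, Mylk at 29.1, Myh11 at 15.5, Actg2 at 12.0, Cnn1 at 11.8 and Lmod1 at 4.62. The genes also differed in how far libraries of the same group lay apart. The SD of log2 CPM within groups was smallest for Mylk, at 0.16, and largest for Cnn1, at 0.43, with the other 6 between 0.25 and 0.36 and a median of 0.20 over all tested genes. In 7 of the 8 genes the groups with the lowest means were carbon black at day 1 and ozone at day 4, with Mylk the exception. When the 8 groups were put in order of their means, none of the 56 pairs of neighbouring groups had libraries that did not overlap.

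Promoter sequence was at hand for 5 of the 8 genes, as 250 bases before the start in the RefSeq table of GRCm38.p6, and the matches are printed because these elements are the ones through which smooth muscle genes are known to be switched on. Both strands were searched. A CArG box with only A or T in its core was found in none of the 5 windows and in 1.47% of all 32851 windows of the same length. A CArG box with a single C or G in the core was found in Acta2 alone of the 5, at 2 places, and in 8.59% of all windows. The MCAT element, GGAATG or its complement CATTCC, which TEAD factors bind, was found in Acta2, Lmod1 and Mylk and in 12.6% of all windows. A match is a description of the letters and no evidence of binding. The Mylk window precedes a start at 34784950, inside the gene, which begins at 34745210. Which form of the kinase starts there was not examined. The Acta2 window precedes a start at 34255373, and on the minus strand that gene begins at 34255590. The Acta2 matches thus lie inside the annotated gene. Capitals mark the element, with 10 bases on each side, 5′ to 3′ on the gene's strand.
Acta2, CArG, chr19:34255438-34255467 (minus strand): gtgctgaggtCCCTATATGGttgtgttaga
Acta2, CArG, chr19:34255388-34255417 (minus strand): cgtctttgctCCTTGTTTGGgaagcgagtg
Acta2, MCAT, chr19:34255504-34255529 (minus strand): gcagaacagaGGAATGcagtggaaga
Lmod1, MCAT, chr1:135324673-135324698 (plus strand): aagattccctGGAATGtcctcaagtt
Mylk, MCAT, chr16:34784782-34784807 (plus strand): cagttcagaaCATTCCctggtacgtg

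Acta2 (ENSMUSG00000035783, chromosome 19, 34241090 to 34255590, GRCm38) encodes smooth muscle alpha-actin, the main actin of vascular smooth muscle, which pericytes and myofibroblasts also make. At day 1 its level was 153, 109, 154 and 132 CPM in the sham libraries and 92.7, 113, 100 and 79.0 CPM after carbon black. Libraries held 136, 99.2, 154 and 222 CPM after ozone and 168, 157, 151 and 156 CPM after co-exposure. The carbon black libraries were the lowest group and overlapped the sham libraries only at sham replicate 2, the library richest in skeletal muscle RNA. At day 4 Acta2 stood at 133, 120 and 156 CPM in the sham libraries, 115, 139 and 185 CPM after carbon black, 129, 99.3 and 142 CPM after ozone and 126, 162 and 212 CPM after co-exposure, with every exposed group overlapping sham.

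Actg2 (ENSMUSG00000059430, chromosome 6, 83512905 to 83536265) encodes smooth muscle gamma-actin, best known from visceral muscle. At day 1 its level was 21.7, 13.3, 21.4 and 16.4 CPM in sham, 13.0, 14.2, 12.2 and 10.1 CPM with carbon black, 17.9, 14.4, 21.4 and 26.9 CPM after ozone and 22.1, 23.6, 23.7 and 24.5 CPM after co-exposure. All 4 co-exposure libraries lay above all 4 sham libraries. Day 4 sham libraries stood at 18.0, 19.1 and 20.8 CPM, those of carbon black at 17.1, 14.9 and 25.0 CPM, those of ozone at 11.2, 14 and 16.0 CPM and those of co-exposure at 15.5, 21.4 and 33.1 CPM, and there the ozone libraries lay below all sham libraries.

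Myh11 (ENSMUSG00000018830, chromosome 16, 14194535 to 14291372) encodes the smooth muscle myosin heavy chain, the motor itself and a strict marker of smooth muscle cells. Day 1 libraries held 131, 112, 143 and 137 CPM in sham, 84.7, 108, 91.5 and 71.8 CPM with carbon black, 122, 91.1, 121 and 177 CPM after ozone and 118, 133, 127 and 130 CPM after co-exposure. The carbon black libraries all lay below the sham libraries, whereas ozone and co-exposure overlapped them. Day 4 libraries held 125, 128 and 137 CPM in sham, 160, 126 and 172 CPM with carbon black, 85.5, 84.9 and 89.1 CPM after ozone and 80.6, 74.7 and 135 CPM after co-exposure. The 3 ozone libraries formed a tight group below sham, and the co-exposure libraries did so only apart from replicate 3, one of the libraries with skeletal muscle RNA.

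Tagln, Cnn1 and Lmod1 encode proteins that bind actin filaments. Tagln (ENSMUSG00000032085, chromosome 9, 45929619 to 45936058) encodes transgelin, an early marker of the smooth muscle lineage. Its mean was 116 ± 17 CPM (SD, n = 4) in sham at day 1 and ranged from 86.6 ± 16 CPM after carbon black to 115 ± 7.9 CPM after co-exposure. At day 4 it was 127 ± 18 CPM (SD, n = 3) in sham and ranged from 90.9 ± 10 CPM after ozone to 134 ± 31 CPM after co-exposure. Cnn1 (ENSMUSG00000001349, chromosome 9, 22099216 to 22109630) encodes calponin, which restrains the myosin ATPase, and had its lowest means after carbon black at day 1, at 23.9 ± 7.1 CPM against 35.2 ± 7.2 CPM in sham, and after ozone at day 4, at 20.3 ± 6.4 CPM against 34.8 ± 4.8 CPM. Lmod1 (ENSMUSG00000048096, chromosome 1, 135324807 to 135368065) encodes leiomodin, which nucleates actin filaments. Lmod1 libraries held 14.1, 13.2 and 13.9 CPM after ozone at day 4, below the sham values of 18.5, 23.0 and 21.2 CPM, and 12.8, 15.5, 13.2 and 13.0 CPM after carbon black at day 1, which overlapped the lowest sham library at 12.8 CPM.

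Des (ENSMUSG00000026208, chromosome 1, 75360329 to 75368579) encodes desmin, the intermediate filament of muscle, and is shared with heart and skeletal muscle. At day 1 it stood at 137, 204, 137 and 119 CPM in sham, 84.0, 110, 99.1 and 77.3 CPM with carbon black, 131, 124, 111 and 160 CPM after ozone and 127, 140, 132 and 154 CPM after co-exposure. Sham replicate 2, with the most skeletal muscle RNA, was the highest sham library for Des and the lowest for the other 7 genes. At day 4 Des was 123, 132 and 134 CPM in sham, 101, 113 and 182 CPM with carbon black, 82.4, 79.7 and 93.0 CPM after ozone and 85.3, 100 and 184 CPM after co-exposure. The high library of the carbon black and of the co-exposure group was again the one with skeletal muscle RNA.

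Mylk (ENSMUSG00000022836, chromosome 16, 34745210 to 35002420) encodes myosin light chain kinase, the enzyme that starts contraction, and its long form is also made by endothelium. Its level was 405, 293, 364 and 370 CPM in sham at day 1, 311, 347, 283 and 328 CPM after carbon black, 369, 238, 295 and 310 CPM after ozone and 279, 317, 298 and 323 CPM after co-exposure, and every exposed group overlapped sham. At day 4 it was 381, 398 and 387 CPM in sham, 451, 330 and 371 CPM with carbon black, 286, 279 and 294 CPM after ozone and 269, 291 and 299 CPM after co-exposure. Both groups that received ozone for 4 days lay below every sham library, and carbon black alone spanned the sham range.

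**Figure D1:**
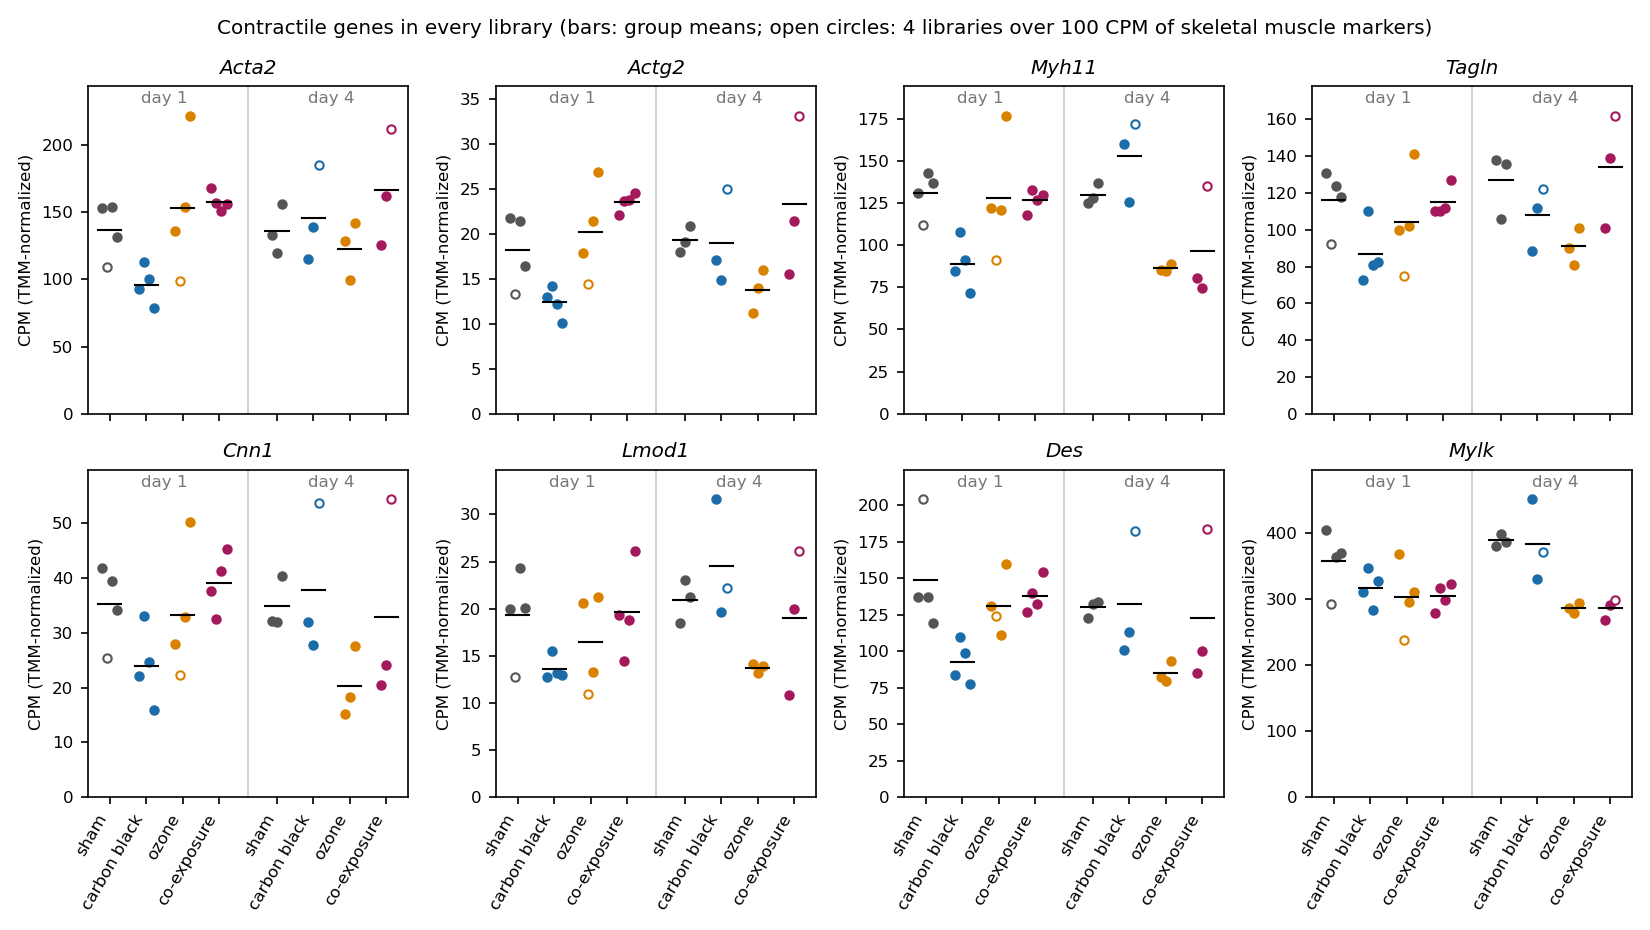
Level of each of the 8 contractile genes in every library, in TMM-normalized CPM on the vertical axis, by exposure and day on the horizontal axis. Points are libraries, bars are group means and open circles are the 4 libraries with over 100 CPM of skeletal muscle markers; the carbon black libraries at day 1 and the ozone libraries at day 4 sit low in 7 of the 8 panels.

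After a single exposure to carbon black, the contractile genes gave lower values than sham, but none of the 8 passed the test. The fold changes on the log2 scale, with their standard error (SE), were -0.51 ± 0.20 for Acta2, -0.56 ± 0.21 for Actg2, -0.55 ± 0.17 for Myh11, -0.43 ± 0.17 for Tagln, -0.56 ± 0.30 for Cnn1, -0.51 ± 0.24 for Lmod1, -0.69 ± 0.20 for Des and -0.17 ± 0.11 for Mylk. With edgeR's quasi-likelihood test and Benjamini-Hochberg adjustment over all genes, adjusted p ran from 0.107 for Des to 0.651 for Mylk. By this test 0 of 8 were called, where 1.66% of all genes tested were called in either direction and 0.0873% lower. At an unadjusted p under 0.05 there were 6 of 8, against 10.2% of all genes in either direction. DESeq2 called 1, Des, where it called 2.2% of all genes in either direction. The libraries of Myh11 and Des did not overlap sham, 2 of 8 where 3.58% of all genes did so in this direction. The median of the 8 fold changes was -0.53, against 0.00 for all genes tested.

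Fitted without the 4 libraries with skeletal muscle RNA, the actins, the myosin heavy chain and desmin passed the test. Log2 fold changes were then -0.60 ± 0.15 for Acta2 (adjusted p = 0.034 by edgeR), -0.68 ± 0.15 for Actg2 (0.0167), -0.62 ± 0.12 for Myh11 (0.0065) and -0.50 ± 0.12 for Des (0.0251). These 4 of 8 compare with 0.14% of all genes called lower in that fit. Removing sham replicate 2 alone, the only one of the 4 in this comparison, gave the same values for these 4 genes with larger errors, such as -0.62 ± 0.18 for Myh11 (adjusted p = 0.0814 by edgeR) and -0.50 ± 0.20 for Des (0.324), and no call among the 8. Leaving out carbon black replicate 2 alone brought Myh11 to -0.66 ± 0.18 (adjusted p = 0.0489 by edgeR). Other cells moved in the same comparison: neutrophil markers summed to between 120 and 4140 CPM in the carbon black libraries against 36.6 to 218 CPM in sham. Of these markers 5 of 5 were called higher, where 1.57% of all genes were. Pericyte markers, of cells that share some of these genes, summed to between 264 and 331 CPM with carbon black and 349 to 397 CPM in sham, without overlap. All 8 had values below 0, from -0.58 ± 0.17 for Ndufa4l2 to -0.13 ± 0.22 for Kcnj8. None was called by edgeR, with 3 at an unadjusted p under 0.05, against 10.2% of all genes. Their sum also lay below sham without overlap after co-exposure at day 1, at 232 to 334 CPM. There edgeR called Pdgfrb, Abcc9 and Notch3 lower, where 9.09% of all genes were, while Acta2 stood at 0.21 ± 0.19 and Actg2 at 0.36 ± 0.20. The 12 cardiac markers summed to 150 to 637 CPM (median 355) against 421 to 664 CPM (median 588). EdgeR called 0 of 12, and 2 had an unadjusted p under 0.05, Actn2 and Tcap. Both varied more between sham libraries, which include replicate 2 with its skeletal muscle RNA, than between carbon black libraries. Whether that RNA raised them was not tested. Unadjusted p by edgeR was 0.338 for Myh6, 0.34 for Myl7 and 0.263 for Tnni3. None of the neutrophil, pericyte or cardiac markers was at 0 in any of these libraries, and the part of these cells in the values was not tested.

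Ozone and co-exposure gave no call among the 8 genes at day 1, though some 95% intervals were wide. They reached from -0.73 to 0.25 for Lmod1 and -0.70 to 0.53 for Cnn1 after ozone, and from -0.06 to 0.79 for Actg2 after co-exposure. By edgeR 0 of 8 were called after ozone, where 11.4% of all genes were, and 0 of 8 after co-exposure, where 19.2% were. In each, 1 of 8 had an unadjusted p under 0.05, Mylk, against 25.3% and 32.0% of all genes, and DESeq2 called none. Mylk had the lowest value in both, -0.24 ± 0.11 after ozone and after co-exposure, and Acta2 stood at 0.16 ± 0.19 and 0.21 ± 0.19. Mylk passed the threshold after ozone without ozone replicate 1 (-0.35 ± 0.11, adjusted p = 0.0468 by edgeR) and after co-exposure without the 4 libraries with skeletal muscle RNA (-0.32 ± 0.10, adjusted p = 0.035 by edgeR, 1 of 8 where 6.68% of all genes were called lower). The Actg2 libraries of the co-exposure group lay above sham without overlap, 1 of 8 where 12.0% of all genes did so, with a fold change of 0.36 ± 0.20 that was not called (adjusted p = 0.227 by edgeR).

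Set directly against carbon black, co-exposure at day 1 gave higher levels of 4 of the 8 genes, both actins, the myosin heavy chain and desmin. Acta2 was higher by 0.72 ± 0.20 on the log2 scale (adjusted p = 0.00887 by edgeR), Actg2 by 0.92 ± 0.21 (0.00205), Myh11 by 0.51 ± 0.17 (0.0277) and Des by 0.58 ± 0.20 (0.0388), that is 1.65-fold, 1.89-fold, 1.43-fold and 1.49-fold. Among all genes, 13.1% were called higher. Tagln (0.41 ± 0.17), Cnn1 (0.71 ± 0.30) and Lmod1 (0.53 ± 0.24) were not called, and Mylk was at -0.06 ± 0.11 with a 95% interval from -0.29 to 0.17. Libraries did not overlap for 5 of the 8 genes, the 4 called and Tagln, where 14% of all genes did so. Without the 4 libraries with skeletal muscle RNA, none of which is in either group, 7 of 8 were called higher, all but Mylk, where 13.3% of all genes were. Other markers differed between the same groups. The 5 neutrophil markers, all called lower where 12.7% of all genes were, summed to between 17.4 and 44.6 CPM in the co-exposure libraries against 120 to 4140 CPM with carbon black. The 12 cardiac markers summed to 496 to 720 CPM (median 620) against 150 to 637 CPM (median 355), with 0 called by edgeR. Of these, 1 had an unadjusted p under 0.05, against 37.2% of all genes. Pericyte marker sums overlapped, at 232 to 334 CPM against 264 to 331 CPM. No neutrophil or cardiac marker was at 0, and the part of these markers in the result was not tested.

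Acta2 and Actg2 kept this call without any 1 library, and Myh11 and Des did not. Adjusted p for Myh11 by edgeR rose to 0.0678 and 0.0989 without carbon black replicates 1 and 4, and to 0.0507, 0.0586 and 0.0602 without co-exposure replicates 2, 3 and 4. For Des it lay between 0.0564 and 0.112 without carbon black replicate 1, 3 or 4 or co-exposure replicate 2, 3 or 4. Without carbon black replicate 2, the highest carbon black library for all 8 genes, Tagln (adjusted p = 0.0248 by edgeR) and Cnn1 (0.0484) were called as well. The interaction of both exposures at day 1, which asks whether co-exposure differs from the sum of the single exposures on the log2 scale, gave values from 0.18 ± 0.16 for Mylk to 0.79 ± 0.42 for Cnn1. None of the 8 was called by edgeR or DESeq2, where edgeR called 1.46% of all genes. At an unadjusted p under 0.05 there were 5 of 8, against 19.4% of all genes.

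**Figure D2:**
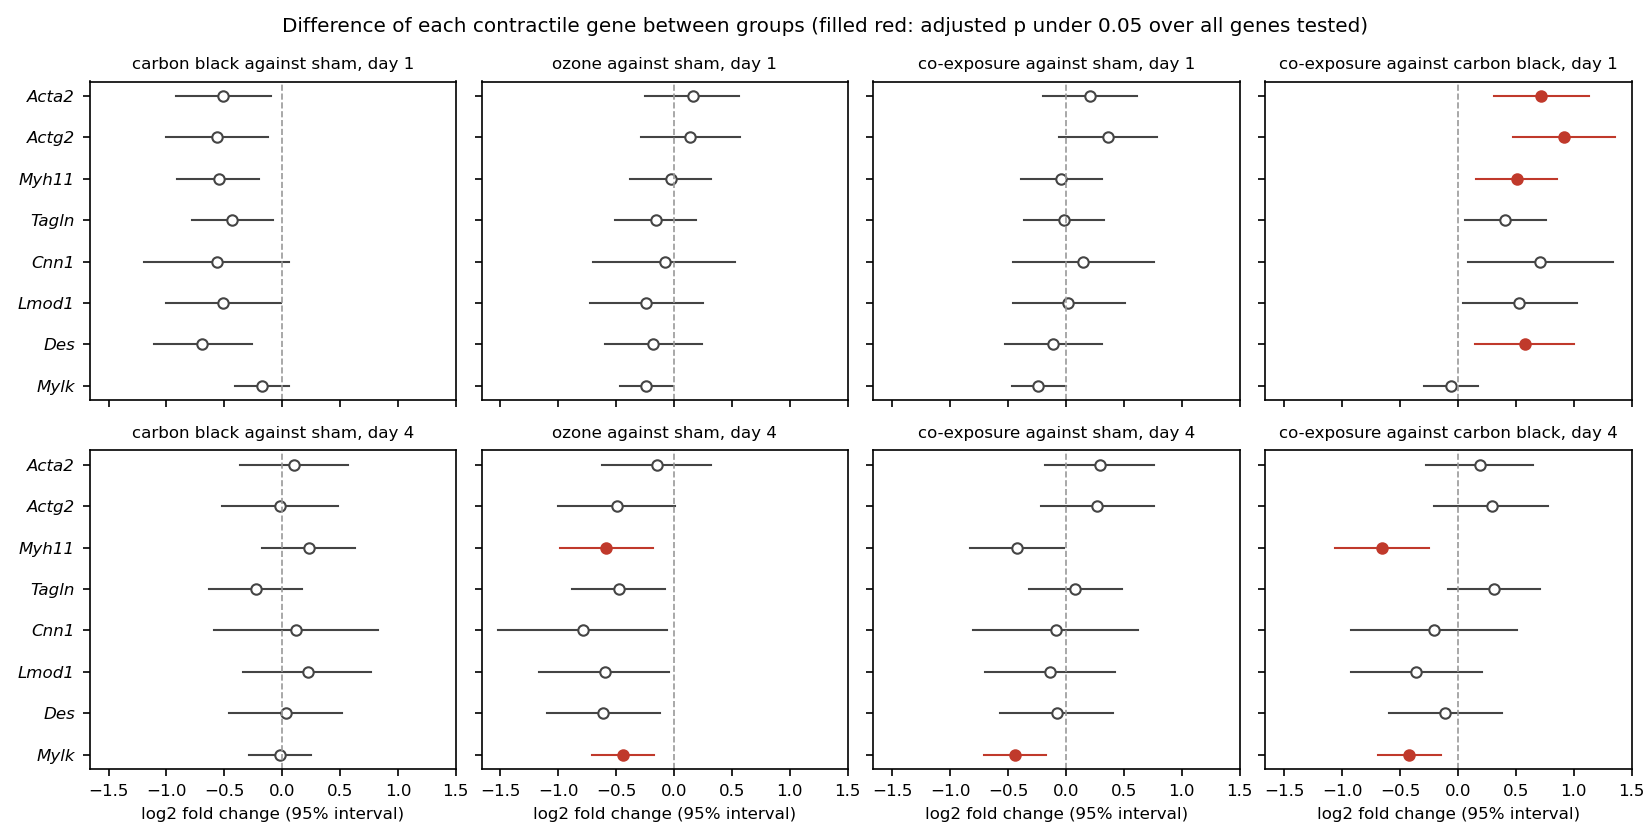
Log2 fold change of each contractile gene (horizontal axis) with its 95% interval, for the 3 exposures against sham and for co-exposure against carbon black, at day 1 (upper row) and day 4 (lower row). Filled red points passed an adjusted p of 0.05 over all genes tested by edgeR; 4 genes pass to the right for co-exposure against carbon black at day 1, and Myh11 and Mylk pass to the left for ozone at day 4.

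Carbon black at day 4 gave no call among the 8 genes, with values from -0.23 ± 0.19 for Tagln to 0.23 ± 0.19 for Myh11. By edgeR 0 of 8 were called, where 0.208% of all genes were, and DESeq2 called none. At an unadjusted p under 0.05 there were 0 of 8, against 15.2% of all genes. The 95% intervals reached from -0.36 to 0.57 for Acta2 and from -0.17 to 0.63 for Myh11. The change between days in the carbon black difference from sham was 0.79 ± 0.26 for Myh11, 0.72 ± 0.31 for Des and 0.61 ± 0.30 for Acta2, and none of the 8 was called by edgeR or DESeq2, where edgeR called 0.094% of all genes. At an unadjusted p under 0.05 there were 2 of 8, against 8.38% of all genes. The interval for Mylk, from -0.20 to 0.51, was the narrowest.

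After 4 days of ozone, the myosin heavy chain and the kinase fell. Mylk fell by 0.44 ± 0.13 on the log2 scale (adjusted p = 0.0155 by edgeR) and Myh11 by 0.59 ± 0.19 (adjusted p = 0.0334), to 0.737-fold and 0.666-fold of sham. These 2 of 8 compare with 9.07% of all genes called lower. The other values were -0.79 ± 0.35 for Cnn1, -0.61 ± 0.24 for Des, -0.60 ± 0.27 for Lmod1, -0.49 ± 0.24 for Actg2, -0.48 ± 0.19 for Tagln and -0.15 ± 0.22 for Acta2, with adjusted p between 0.0672 and 0.691 by edgeR. In 7 of the 8 genes, all but Acta2, every ozone library lay below every sham library, where 20.6% of all genes did so. The median of the 8 was -0.54 against -0.01 for all genes tested.

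Both calls at day 4 were near the threshold. Leaving out any 1 of the 6 sham or ozone libraries ended the call of Myh11, with adjusted p between 0.0546 and 0.0994 by edgeR and values between -0.55 and -0.62, and without ozone replicate 2 Mylk was not called either (adjusted p = 0.0562 by edgeR). The spread estimated from the other groups also bore on the count. Neither group holds a library with skeletal muscle RNA, yet when those 4 libraries were left out of the shared estimate of spread, 6 of 8 were called lower, all but Acta2 and Lmod1, where 10.2% of all genes were. With only the sham and ozone libraries in the fit, 7 of 8 were called, all but Acta2, where 28.6% of all genes were. Des was then at -0.62 ± 0.08, against -0.61 ± 0.24 in the fit of all groups.

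Heart muscle markers moved in the same direction in the same comparison. The 12 cardiac markers summed to 485 to 943 CPM in sham at day 4 and to 180 to 240 CPM after ozone. None of the markers was at 0 in any of these libraries, and 8 of the 12 fell, where 9.07% of all genes did. Tnnt2, cardiac troponin T, changed by -2.01 ± 0.57 (adjusted p = 0.0152 by edgeR), Myl7, an atrial light chain, by -2.04 ± 0.59 (0.0185), and Myh6, the myosin heavy chain of the mouse heart, by -2.08 ± 0.62 (0.0202). Cardiac muscle in lung tissue lines the pulmonary veins, and Des is made there too. The part of cardiac muscle in the values of the contractile genes was not tested.

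With co-exposure at day 4 the 8 genes were called lower no more often than all genes, and Mylk was the gene called. It fell by 0.44 ± 0.13 (adjusted p = 0.00935 by edgeR), to 0.736-fold of sham, 1 of 8 where 16.3% of all genes were called lower, and its libraries did not overlap sham, 1 of 8 where 19.5% of all genes did so. Mylk kept the call without any 1 library. Myh11 was at -0.42 ± 0.19 (adjusted p = 0.095 by edgeR), while Acta2 stood at 0.29 ± 0.22 and Actg2 at 0.27 ± 0.23. Without co-exposure replicate 3, the library with skeletal muscle RNA and the highest of its group for all 8 genes, Myh11 fell by 0.74 ± 0.19 (adjusted p = 0.00432 by edgeR). Without all 4 such libraries, Myh11 (adjusted p = 0.000991 by edgeR), Des (0.0171) and Mylk (0.00612) were called lower, 3 of 8 where 12.6% of all genes were. The ozone and co-exposure groups were compared with the same sham libraries, so their shared values are no independent support for each other.

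Against carbon black at day 4, co-exposure gave lower Myh11 (-0.66 ± 0.20, adjusted p = 0.00978 by edgeR) and lower Mylk (-0.42 ± 0.13, adjusted p = 0.0112), 2 of 8 where 18.9% of all genes were called lower. Mylk libraries did not overlap, 1 of 8 where 17.5% of all genes did so. Neither count was far from the share of all genes. Myh11 was not called without co-exposure replicate 2 (-0.50 ± 0.21, adjusted p = 0.0731 by edgeR), and Mylk was not called without carbon black replicate 1 (-0.29 ± 0.13, adjusted p = 0.0902). With only these groups in the fit neither was called, where 16.7% of all genes were.

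None of the 8 genes, and no gene in the table, was called between co-exposure and ozone alone. By edgeR 0 of 8 and 0.0% of all genes were called at either day, DESeq2 called 0 of 8 at either day, and 0 of 8 at day 1 and 3 of 8 at day 4 had an unadjusted p under 0.05, against 15.7% and 20.1% of all genes. At day 4 the values were 0.76 ± 0.24 for Actg2, 0.56 ± 0.19 for Tagln, 0.53 ± 0.24 for Des and 0.44 ± 0.22 for Acta2, against 0.16 ± 0.20 for Myh11 and 0.00 for Mylk, whose 95% interval ran from -0.27 to 0.27. The count depended on co-exposure replicate 1, the lowest library of its group for 7 of the 8 genes. Without it Actg2 (1.00 ± 0.24, adjusted p = 0.00664 by edgeR), Tagln (0.0134), Des (0.033) and Lmod1 (0.0454) were called higher than after ozone, 4 of 8 where 18.3% of all genes were called in either direction.

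The remaining comparisons gave no call among the 8 genes by edgeR or DESeq2. The interaction at day 4 ran from -0.07 ± 0.27 for Myh11 to 0.79 ± 0.27 for Tagln (adjusted p = 0.0947 by edgeR), where 1.37% of all genes were called. At an unadjusted p under 0.05 there were 2 of 8, against 23.3% of all genes. Without co-exposure replicate 1 Actg2 (1.01 ± 0.32, adjusted p = 0.0289) and Tagln (0.96 ± 0.27, adjusted p = 0.0143) were called by edgeR. The change of the ozone difference from day 1 to day 4 ran from -0.70 ± 0.46 for Cnn1 to -0.20 ± 0.17 for Mylk, where 4.24% of all genes were called and 1 of 8, against 16.7% of all genes, had an unadjusted p under 0.05. That of co-exposure ran from -0.38 ± 0.26 for Myh11 to 0.10 ± 0.25 for Tagln, where 10.2% were called and 0 of 8, against 24.7% of all genes, had an unadjusted p under 0.05. The fall of Myh11 and Mylk at day 4 was thus not shown to differ from their values at day 1. Sham libraries of both days differed by -0.20 ± 0.22 for Des to 0.12 ± 0.12 for Mylk, where 0.0% of all genes were called and 0 of 8, against 9.89% of all genes, had an unadjusted p under 0.05.

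Acta2 and Myh11 did not keep the same proportion in every group. This pair was chosen after the values were seen, so the ratio is given as a description, and it does not depend on library scaling. Exact two-sided tests against sham gave no p under 0.171 after Benjamini-Hochberg adjustment over these comparisons. With 3 libraries a group the unadjusted p of that test cannot be under 0.1. The mean log2 ratio of Acta2 to Myh11 CPM was 0.06 ± 0.13 (SD, n = 4) in sham at day 1, 0.11 ± 0.04 with carbon black, 0.24 ± 0.12 with ozone and 0.32 ± 0.13 with both. At day 4 it was 0.06 ± 0.14 (SD, n = 3) in sham, -0.08 ± 0.35 with carbon black, 0.50 ± 0.24 with ozone and 0.80 ± 0.27 with both. The library values at day 4 were 0.09, -0.09 and 0.19 in sham and -0.48, 0.14 and 0.10 with carbon black. They were 0.59, 0.23 and 0.67 after ozone and 0.64, 1.12 and 0.65 after co-exposure. All libraries of both groups exposed to ozone at day 4, and those of the co-exposure group at day 1, lay above every sham library of their day. The share of other gene pairs that separate in this way is not given here. The ratio in the co-exposure library with skeletal muscle RNA, 0.65, lay beside that of replicate 1, 0.64.

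**Figure D3:**
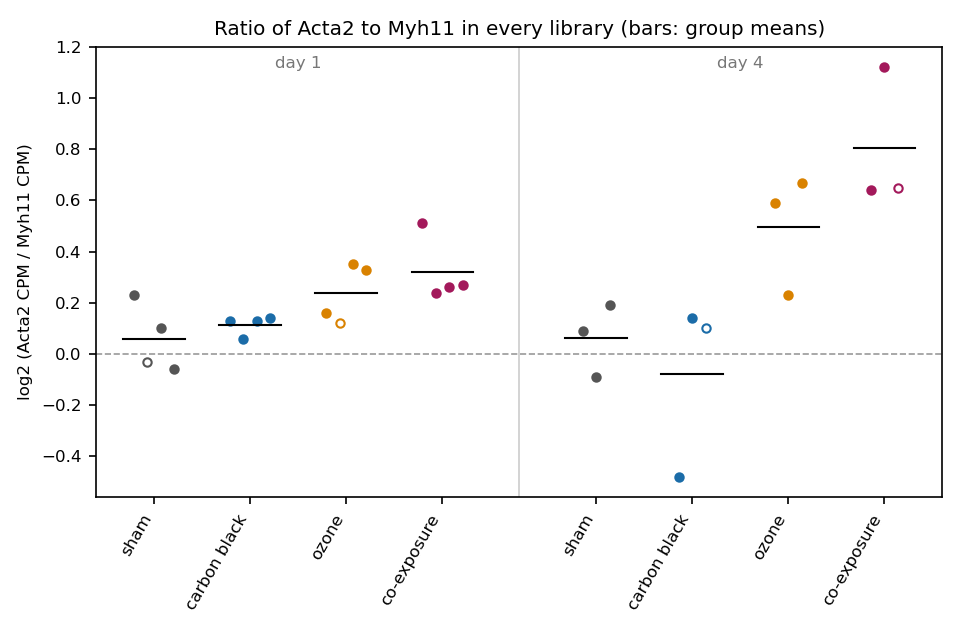
Log2 ratio of Acta2 to Myh11 CPM (vertical axis) in every library, by exposure and day. Bars are group means and open circles are the 4 libraries with over 100 CPM of skeletal muscle markers; sham and carbon black means lie between -0.08 and 0.11, and the co-exposure mean at day 4 lies at 0.80.

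In some groups 1 library was the highest or the lowest for most of the 8 genes, and in others the order differed between genes. Co-exposure day 4 replicate 3 and carbon black day 1 replicate 2 were the highest library of their group for 8 of 8 genes, ozone day 1 replicate 4 and ozone day 4 replicate 3 for 7 of 8. Ozone day 1 replicate 2 and sham day 1 replicate 2 were the lowest for 7 of 8. In contrast, carbon black day 4 replicate 1 was the highest of its group for Lmod1 and Mylk and the lowest for Acta2, Tagln and Des, and co-exposure day 1 replicate 1 was the highest for Acta2 and the lowest for 5 others. Skeletal muscle RNA marked high as well as low libraries: the lowest of sham and of ozone at day 1 and the highest of co-exposure at day 4 each held it. The 12 cardiac markers were high in some of the same libraries, at 1660 CPM in carbon black day 4 replicate 3, 906 CPM in co-exposure day 4 replicate 3 and 637 CPM in carbon black day 1 replicate 2, and low, at 150 CPM, in carbon black day 1 replicate 4, the lowest of its group for Acta2 and Myh11. How much of the spread follows the tissue that went into each homogenate was not tested.

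**Figure D4:**
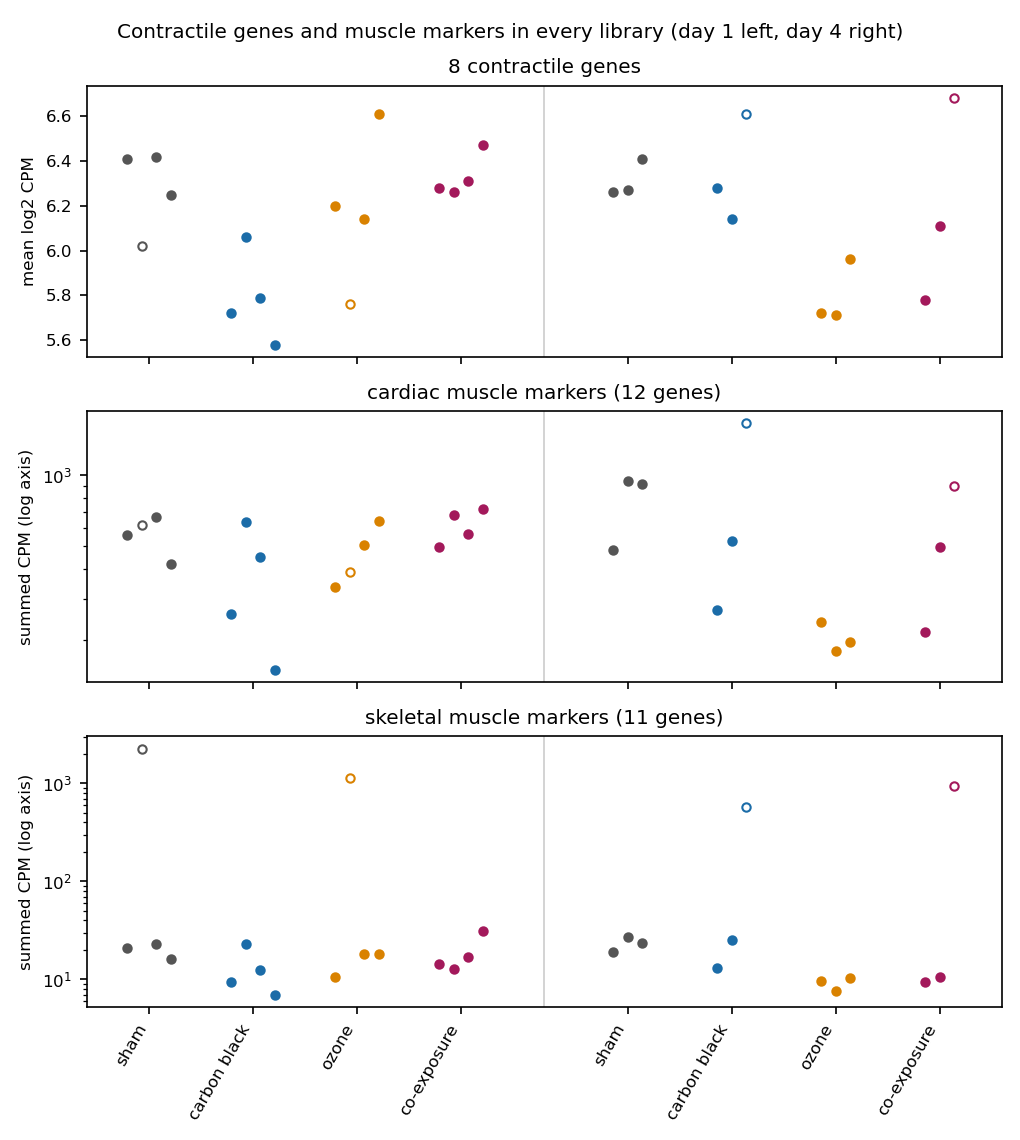
Mean log2 CPM of the 8 contractile genes (top), summed CPM of 12 cardiac markers (middle, log axis) and summed CPM of 11 skeletal muscle markers (bottom, log axis) in every library, by exposure and day. Each point is a library and open circles are the 4 libraries with over 100 CPM of skeletal muscle markers, which lie at 575 to 2260 CPM in the bottom panel; the ozone libraries at day 4 are low in the upper panels.

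The gene whose pattern over the 28 libraries was most like the average of the 8 was Myl9, the regulatory light chain that Mylk phosphorylates. Likeness was measured as the root mean square difference of standardised log2 CPM, which was 0.484 for Myl9, 0.336 to 0.941 for the 8 genes themselves and 1.39 for the median gene. Next came Tnnt2 (0.569), Mybphl, Actc1, Myh6, Dmpk, Tnni3, Sln, Tnnc1 and Myl7 (0.675), of which all but Dmpk, a kinase of muscle at large, are best known from heart muscle. With each group's mean subtracted, Myl9 again came first (0.418), followed by Mzt2, Polr2c, Trabd2b, Hexim1, Ankrd1, Gemin6, Klf4, Smu1 and Tnnt2 (0.611 to 0.735). Points share library and depth, and no test was made.

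Other genes of the contractile machinery fell after ozone and co-exposure at day 4, and a few rose. Of 18 further contractile and cytoskeletal genes, 2 rose and 4 fell after ozone, and 3 rose and 6 fell after co-exposure. Among all genes 11.7% rose and 9.07% fell after ozone, and 17.7% and 16.3% after co-exposure. Synm, which encodes the intermediate filament synemin, fell from 101 ± 11 CPM (SD, n = 3) in sham to 51.6 ± 4.7 CPM after ozone (-0.97 ± 0.12, adjusted p = 2.73e-06 by edgeR) and to 43.6 ± 1.1 CPM after co-exposure (-1.21 ± 0.13, adjusted p = 5.49e-08). Synpo2, an actin-bundling protein of muscle, fell after ozone (-0.83 ± 0.19), and Tns1, the adhesion protein tensin, fell after co-exposure (-0.82 ± 0.13). Actn1, the alpha-actinin of non-muscle cells, rose by 0.52 ± 0.12 after ozone and 0.53 ± 0.12 after co-exposure. Myl9 fell after ozone, by 0.59 ± 0.19, and was at -0.14 ± 0.19 after co-exposure. None of the 18 was called by edgeR at day 1 with carbon black, where 5 had an unadjusted p under 0.05, against 10.2% of all genes. With ozone 1 rose and 1 fell and with both exposures 1 rose and 5 fell, with Actn1 the gene that rose and Synm lower in both. Among all genes at day 1, 6.81% rose and 4.63% fell with ozone, and 10.1% and 9.09% with co-exposure.

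Some of the genes that set light chain phosphorylation and tone fell after 4 days of ozone or co-exposure, and none was called after 4 days of carbon black. Among all genes 9.07% fell and 11.7% rose after ozone, and 16.3% fell and 17.7% rose after co-exposure. Of 12 regulators of the light chain kinase and phosphatase, 2 fell after ozone and 5 after co-exposure, and none rose. Ppp1r14a, the smooth muscle inhibitor of myosin phosphatase also called CPI-17, fell from 36.7 ± 1.2 CPM to 17.8 ± 1.6 CPM after ozone (-1.05 ± 0.18, adjusted p = 0.00014 by edgeR) and to 17.8 ± 3.3 CPM after co-exposure (-1.05 ± 0.18, adjusted p = 7.33e-05). Of 15 calcium channels and tone receptors, 1 rose and 6 fell after ozone and 1 rose and 7 fell after co-exposure. Gucy1a1, a subunit of the nitric oxide receptor, changed by -0.62 ± 0.17 and -1.10 ± 0.17. Ano1, a calcium-gated chloride channel of muscle and of secretory epithelium, rose by 1.16 ± 0.20 and 0.85 ± 0.20. With co-exposure at day 1, 4 of the 15 fell, where 9.09% of all genes did, among them Pde5a, which breaks down cyclic GMP (-0.83 ± 0.15).

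Serum response factor itself was not called at day 4, nor was its coactivator. Srf stood at -0.10 ± 0.12 after ozone and -0.15 ± 0.13 after co-exposure, and Myocd, at only 1.26 ± 0.22 CPM in sham, at 0.51 ± 0.41 and 0.39 ± 0.42. Of the 10 transcription factors listed, 3 fell after ozone and 4 after co-exposure, and none rose. Among all genes 9.07% and 16.3% fell. Klf4, which represses contractile genes and is made by many cells, changed by -1.07 ± 0.19 and -0.79 ± 0.19, and Foxf1, a factor of lung mesenchyme and endothelium, by -0.70 ± 0.16 and -1.08 ± 0.16. Foxf1 was also the 1 factor of the 10 that fell at day 1 with co-exposure, by 0.56 ± 0.14, where 9.09% of all genes fell.

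Markers of other cells that share these genes or lie beside them changed as well. At day 4, of 8 pericyte markers, 4 fell with ozone and 4 with co-exposure, where 9.07% and 16.3% of all genes did. Their summed level was 338 to 373 CPM in sham, 227 to 255 CPM after ozone and 151 to 225 CPM after co-exposure. Pdgfrb, the receptor that marks pericytes and fibroblasts, changed by -0.66 ± 0.17 and -1.10 ± 0.17. Of 6 endothelial markers 4 and 5 fell, with sums of 2700 to 3630 CPM in sham, 2050 to 2130 CPM after ozone and 1160 to 2140 CPM after co-exposure. The 10 fibroblast markers went both ways, with 3 higher and 2 lower after ozone and 2 higher and 3 lower after co-exposure. Among all genes 11.7% were called higher after ozone and 17.7% after co-exposure. The collagen gene Col1a1 rose by 1.26 ± 0.22 and 1.30 ± 0.22, whereas Tcf21, a transcription factor of lung fibroblasts, was called lower at -0.76 ± 0.19 and -0.99 ± 0.19. The part of these cells in the values of Acta2 and Mylk was not tested.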

How the data were processed

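Stranded paired-end reads were quantified by the authors with Salmon 1.1.0, per the labels. The submitters' processing notes also list mm10, R 3.6.3 and DESeq2, with no roles. The values deposited are estimated counts by gene, not normalized, and 17.7% of them are not whole. Salmon divides reads shared by similar transcripts, such as those of the actins, by an estimate. Titles gave each library its group and replicate number. Here the expected counts were rounded and named from GENCODE M21 (35505 of 35880 identifiers matched), then tested with edgeR 4.0.16 in R 4.3.3. The settings were the quasi-likelihood F test, robust dispersion, TMM scaling (factors 0.902 to 1.05), filterByExpr and a mean per group over all 28 libraries (20 residual degrees of freedom), with Benjamini-Hochberg adjustment over 14887 genes and a threshold of 0.05. The procedure was checked on simulated data. Alternatives were DESeq2 1.42.0, limma-voom (limma 3.58.1), other scaling and filters, the compared groups alone, a replicate block and leaving out each library. Whether same-numbered libraries go together was checked by correlating their deviations from the group means. Every pair correlated above 0.1 for co-exposure against sham at day 4 alone (0.352, 0.153 and 0.253). The values given for that comparison are still unpaired, and replicate number entered only the block alternative, over all 28 libraries. Genes named from the further lists were drawn from the up to 3 with the smallest p in a comparison with sham. Not every list, nor every gene so drawn, is named. The 10 genes most like the 8 on average were named as well. Srf, Myocd, Col1a1, Tcf21, Kcnj8 and genes repeated from another comparison were named outside that rule. A gene that the rule named is not reported here. The genes and lists were chosen with earlier results of these data known.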

Additional observations from a re-analysis of the deposited data

Results flagged for a closer look

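Within groups of 4, a library far from the other 3 was looked for by the size of its gap relative to the range of the group, a rule that chance meets in about 1 in 20 groups. It was met in 2 of the 32 sets of 4 values examined. Co-exposure day 1 replicate 4 had the highest Tagln of its group, at 127 CPM. Carbon black day 1 replicate 2 had the highest Lmod1 of its group, at 15.5 CPM, and was the highest of its group for all 8 genes.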

How the results depend on the processing

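No called value of the 8 genes changed sign under any alternative. Median-of-ratios scaling, the stricter low-count filter and the replicate block left all 128 values on their side of the threshold, so the block changed no call. DESeq2 called 1 gene for carbon black at day 1 and added Des for ozone at day 4 (adjusted p = 0.0382), and limma-voom added Cnn1 for co-exposure against carbon black at day 1 (0.0499). Without a low-count filter 1 was called for ozone at day 4, Myh11 being lost (0.0503 by edgeR), and Des was lost for co-exposure against carbon black at day 1 (0.0713). With only the compared groups, 7 were called for ozone at day 4, where 28.6% of all genes were. For co-exposure against carbon black 7 were called at day 1, and 0 at day 4, where 16.7% of all genes were. The interaction at day 1 then had 1 call (Des). Without the 4 libraries with skeletal muscle RNA, 4 were called for carbon black and 1 for co-exposure at day 1, 6 for ozone and 3 for co-exposure at day 4, 7 for co-exposure against carbon black at day 1 and 3 at day 4 (Lmod1 added, adjusted p = 0.0496 by edgeR) and 1 for the change of ozone between days (Des, -0.64 ± 0.18, adjusted p = 0.0483 by edgeR). Leaving out 1 library gave 0 to 1 calls for carbon black and for ozone at day 1, 0 to 1 for ozone and 1 to 2 for co-exposure at day 4, 0 to 4 for co-exposure against ozone at day 4, 2 to 6 and 1 to 2 for co-exposure against carbon black at day 1 and day 4, and 0 to 2 for the interaction at day 4. Where the cause of such a shift is not plain from the libraries removed, it was not tested. A count with no share of all genes printed here or above shows only how calls moved with the processing. The same 10 genes were most like the 8 with a prior count of 0.5. With 3 or 4 libraries a group, an SE of 0.11 to 0.35 sets the smallest difference between a pair of groups that could be called. For interactions and changes between days the SE was larger, up to 0.49 for Cnn1 in the interaction at day 4.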
